A study of Mus musculus with 11 samples.

Results

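DNA damage response and repair genes were examined in normal mouse thymocytes, in pre-tumor thymocytes and in thymic lymphomas driven by a MYC transgene. The list held 34 genes, taken by name and chosen with earlier results of these data known. It had 10 of homologous recombination, 11 of the Fanconi anemia pathway, 4 checkpoint kinases, the 3 parts of the double-strand break sensor complex, 3 of mismatch repair, and 3 of base excision repair and poly(ADP-ribose) signalling. Of these, 33 had a probe set that carries their symbol and no other, and where a gene had several, the probe set with the highest mean over the 11 arrays was used. Xrcc2 was not analysed here. The 33 genes were part of 28939 probe sets tested, which name 19938 genes.

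The samples were whole-transcript Affymetrix array measurements of total RNA from thymus of FVB mice. The 3 normal samples were thymocytes of mice with EμSR-tTA, Teto-Cre and Rosa26LOXPEGFP and an intact Dnmt3b+/+ locus, taken at 24 days. The 3 lymphomas with Dnmt3b, called WT lymphomas here, carried EμSR-tTA, Teto-MYC and Rosa26LOXPEGFP with Dnmt3bF/F and no Cre transgene. The 3 Dnmt3b-deficient ones, called KO lymphomas, carried EμSR-tTA, Teto-MYC, Teto-Cre and Rosa26LOXPEGFP with Dnmt3b-/-. The 2 pre-tumor samples had that same genotype and were taken at 24 days. In this system the EμSR enhancer and promoter drive the tetracycline transactivator tTA in blood cells, tTA switches on the Teto transgenes, and EGFP marks cells in which Cre has acted. Lymphomas were taken when tumor burden became apparent and were not sorted, whereas EGFP-positive cells were sorted out of the pre-tumor thymi. Every comparison with normal thymocytes therefore also differs in the MYC transgene, and in part in Cre, stage, age and sorting, which cannot be told apart here. The labels do not state whether cells of the normal thymi were sorted. The labels call the samples biological replicates.

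Cells repair broken DNA by several routes. The Mre11-Rad50-Nbn complex binds double-strand ends and activates Atm, while Atr responds to single-stranded DNA at stalled forks, and both kinases signal through Chek1 and Chek2. Homologous recombination copies the lost sequence from the sister chromatid with Brca1, Brca2 and Palb2 among its proteins, and the Fanconi anemia proteins join it to clear crosslinks between the strands. In the thymus the same machinery serves cells that divide fast and cut their own antigen receptor genes.

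The targeted gene was read first. The log2 level of Dnmt3b, a DNA methyltransferase, was 5.22, 5.31 and 5.30 in normal thymocytes, 5.36, 5.59 and 5.70 in WT lymphomas, 5.26, 5.49 and 5.40 in KO lymphomas, and 5.07 and 5.24 in pre-tumor samples. The difference between the tumor genotypes was -0.17 ± 0.10 (SE, adjusted p = 0.899), so the probe set does not separate the labelled genotypes. The position of the probe set relative to the deletion was not known here, so its level checks no label. Myc itself, by the probe set for the mouse gene, fell in each MYC group, from 7.90 ± 0.20 (SD, n = 3) in normal thymocytes to 5.24 ± 0.40 in WT lymphomas, 4.62 ± 0.32 in KO lymphomas and 5.87 ± 0.00 in pre-tumor samples (n = 2), and it was likewise not known whether this probe set reads the transgene.

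Promoters are given first, since MYC and the cell cycle factors of the E2F family bind known short motifs. RefSeq's table for GRCm38.p6 held a 300-base promoter, 250 bases before to 50 after the start, for 29 of the 33 genes. Known growth and cell cycle motifs were searched on both strands: the E-box CACGTG that MYC binds, the E2F-like TTTNNCGC, the CCAAT box and the cell cycle element TTTGAA. The promoters below, 5′ to 3′ on the gene's strand with those motifs in capitals, are those of both genes with an E-box, of Brca2 and 3 checkpoint kinases, and of the gene that fell. No motif overlapped another. They are Apex1 at chr14:50924699-50924998 on the plus strand, Parp1 at chr1:180568641-180568940 on the plus strand, Chek1 at chr9:36726609-36726908 on the minus strand, Atm at chr9:53536622-53536921 on the minus strand, Brca2 at chr5:150522371-150522670 on the plus strand, Chek2 at chr5:110839733-110840032 on the plus strand and Fancg at chr4:43010252-43010551 on the minus strand.
Apex1: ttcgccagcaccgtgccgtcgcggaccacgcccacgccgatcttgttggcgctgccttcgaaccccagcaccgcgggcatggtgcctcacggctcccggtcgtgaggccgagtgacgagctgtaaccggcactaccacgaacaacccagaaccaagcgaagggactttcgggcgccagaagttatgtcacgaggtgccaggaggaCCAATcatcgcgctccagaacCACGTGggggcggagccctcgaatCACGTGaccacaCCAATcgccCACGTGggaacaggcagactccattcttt
Parp1: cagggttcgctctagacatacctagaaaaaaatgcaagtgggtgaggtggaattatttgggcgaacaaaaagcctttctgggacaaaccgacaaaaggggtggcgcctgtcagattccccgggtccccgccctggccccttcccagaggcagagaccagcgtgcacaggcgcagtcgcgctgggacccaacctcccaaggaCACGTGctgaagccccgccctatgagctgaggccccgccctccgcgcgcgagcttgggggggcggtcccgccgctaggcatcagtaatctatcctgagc
Chek1: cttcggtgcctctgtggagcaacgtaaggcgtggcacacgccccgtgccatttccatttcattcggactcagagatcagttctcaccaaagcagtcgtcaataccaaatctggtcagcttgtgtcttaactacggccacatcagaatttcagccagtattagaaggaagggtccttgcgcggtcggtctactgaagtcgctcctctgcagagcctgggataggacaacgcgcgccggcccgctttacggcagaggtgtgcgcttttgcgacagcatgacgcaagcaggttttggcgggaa
Atm: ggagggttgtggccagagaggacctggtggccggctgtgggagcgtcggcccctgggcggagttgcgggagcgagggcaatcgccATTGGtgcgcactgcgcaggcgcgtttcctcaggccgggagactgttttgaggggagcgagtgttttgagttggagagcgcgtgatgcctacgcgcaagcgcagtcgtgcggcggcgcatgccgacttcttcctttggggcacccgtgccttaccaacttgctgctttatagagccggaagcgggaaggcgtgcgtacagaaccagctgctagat
Brca2: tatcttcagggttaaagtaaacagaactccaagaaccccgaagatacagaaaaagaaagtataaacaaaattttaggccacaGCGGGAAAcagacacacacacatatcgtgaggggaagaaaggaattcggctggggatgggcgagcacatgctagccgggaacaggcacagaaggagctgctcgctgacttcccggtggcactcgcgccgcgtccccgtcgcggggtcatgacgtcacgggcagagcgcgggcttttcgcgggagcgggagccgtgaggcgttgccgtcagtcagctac
Chek2: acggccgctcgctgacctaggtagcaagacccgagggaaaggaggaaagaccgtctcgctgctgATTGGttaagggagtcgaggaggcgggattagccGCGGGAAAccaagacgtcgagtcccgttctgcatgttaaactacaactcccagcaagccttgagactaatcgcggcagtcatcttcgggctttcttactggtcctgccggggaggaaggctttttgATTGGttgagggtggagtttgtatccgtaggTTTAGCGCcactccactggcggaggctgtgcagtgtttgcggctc
Fancg: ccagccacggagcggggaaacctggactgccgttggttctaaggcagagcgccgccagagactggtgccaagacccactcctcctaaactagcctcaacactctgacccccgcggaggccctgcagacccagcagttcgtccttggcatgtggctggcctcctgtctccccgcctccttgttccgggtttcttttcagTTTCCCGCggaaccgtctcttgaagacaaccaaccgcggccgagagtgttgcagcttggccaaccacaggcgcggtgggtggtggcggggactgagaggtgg

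The E-box was about as frequent in this gene set as in all promoters. It was present in 2 of 29 promoters (6.9%), against 7.24% of all 27025 promoters, with 3 copies at Apex1 and 1 at Parp1. TTTNNCGC was present in 7 of 29 (24.1%, against 5.27% of all promoters and 6.68% of the 15563 promoters of genes named on the array), and CCAAT in 19 of 29 (65.5%, against 37.9% and 38.3%). TTTGAA was present in 1 of 29, at Bard1 (3.45%, against 18.1% and 15.2%). Chek1, one of the genes with the largest rises, held no whole copy of these motifs in its window, and Fancg, which fell, held a TTTNNCGC. The window of Chek1 ends in gcgggaa, which matches the start of TTTNNCGC read on the other strand. The bases after it were not searched, so a copy cut by the window's edge would be missed. Among the 16 promoters of genes that rose in all 3 comparisons with normal thymocytes, 3 held TTTNNCGC (18.8%), and among the other 13, 4 did (30.8%). The E-box was in 2 of the 16 and 0 of the 13, and CCAAT in 11 of the 16 (68.8%) and 8 of the 13 (61.5%). The genes without a promoter here (Fancd2, Rad50, Nbn and Exo1) all rose in all 3 comparisons, so this contrast lacks only genes that rose.

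These promoters were also rich in CpG. The median count was 23 CpG in the 300 bases, against 7 over all promoters and 15 over genes named on the array, and 28 of 29 held at least 10 (96.6%, against 43.9% and 61.8%). Fancl, with 3, was the exception. A gene started on the opposite strand within 500 bases upstream of 11 of the 29 genes (37.9%, against 10.1% of all promoters). Of 10 such neighbours with a measured level, 3 rose in WT lymphomas, 4 in KO lymphomas and 4 in pre-tumor samples. Over all probe sets 9.58%, 9.7% and 9.69% rose. Npat, 376 bases from Atm, rose with it by 1.71, 1.72 and 2.38 on the log2 scale in WT lymphoma, KO lymphoma and pre-tumor samples, and Ankrd49, 81 bases from Mre11a, rose by 1.90, 2.20 and 2.30. Mospd2, 217 bases from Fancb, rose by 0.49 and 0.52 in KO lymphoma and pre-tumor samples, where Fancb rose too. In WT lymphomas it gave 0.38 with no call. Aimp2, 162 bases from Pms2, rose by 0.51, 0.98 and 0.62, while Pms2 was not called. Other pairs went apart: Nbr1, 152 bases from Brca1, fell by 0.70 in KO lymphomas, where Brca1 rose, and Osgep, 56 bases from Apex1, differed by 0.03, -0.01 and -0.40 with no call.

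Against normal thymocytes, most of the repair genes were higher in every MYC group. In WT lymphomas 21 of 33 rose and 1 fell, in KO lymphomas 21 rose and none fell, and in pre-tumor samples 22 rose and 1 fell. In KO lymphomas 1 of the 33, Fancg, was lower at an unadjusted p under 0.05 by limma, as were 4639 of all 28939 probe sets. Rises and falls are calls by limma at an adjusted p under 0.05, adjusted over all probe sets tested. The share of all probe sets that rose was 9.58% in WT lymphomas, 9.7% in KO lymphomas and 9.69% in pre-tumor samples, and the share that fell was 10.3%, 10.5% and 9.88%. The median difference of the 33 genes was 0.84, 0.91 and 0.94 on the log2 scale, against 0.00, 0.00 and -0.02 over all probe sets. The 3 comparisons share the normal samples, so their likeness is not independent. When samples, probe sets or processing were varied, 16 of 22, 18 of 21 and 4 of 23 of these calls were kept throughout. The pre-tumor calls named gene by gene below are thus the least stable. In all, 20 genes rose in all 3 comparisons, 2 rose in 2 of them (Fancb and Fancl), Fancg fell, and 10 were not called in any. For 23 of the 33, each of the 8 MYC samples lay above each of the 3 normal ones. The 23 include Pms2, which was not called, by a gap of 0.0011. That separation was not counted over all probe sets. In the WT lymphoma, KO lymphoma and pre-tumor comparisons taken singly, 24, 25 and 26 of the 33 lay wholly above normal. Of all 28939 probe sets, 4613, 4396 and 5041 did. The RNA is of whole samples, so fewer cells of a type and less RNA per cell cannot be told apart.

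**Figure D1:**
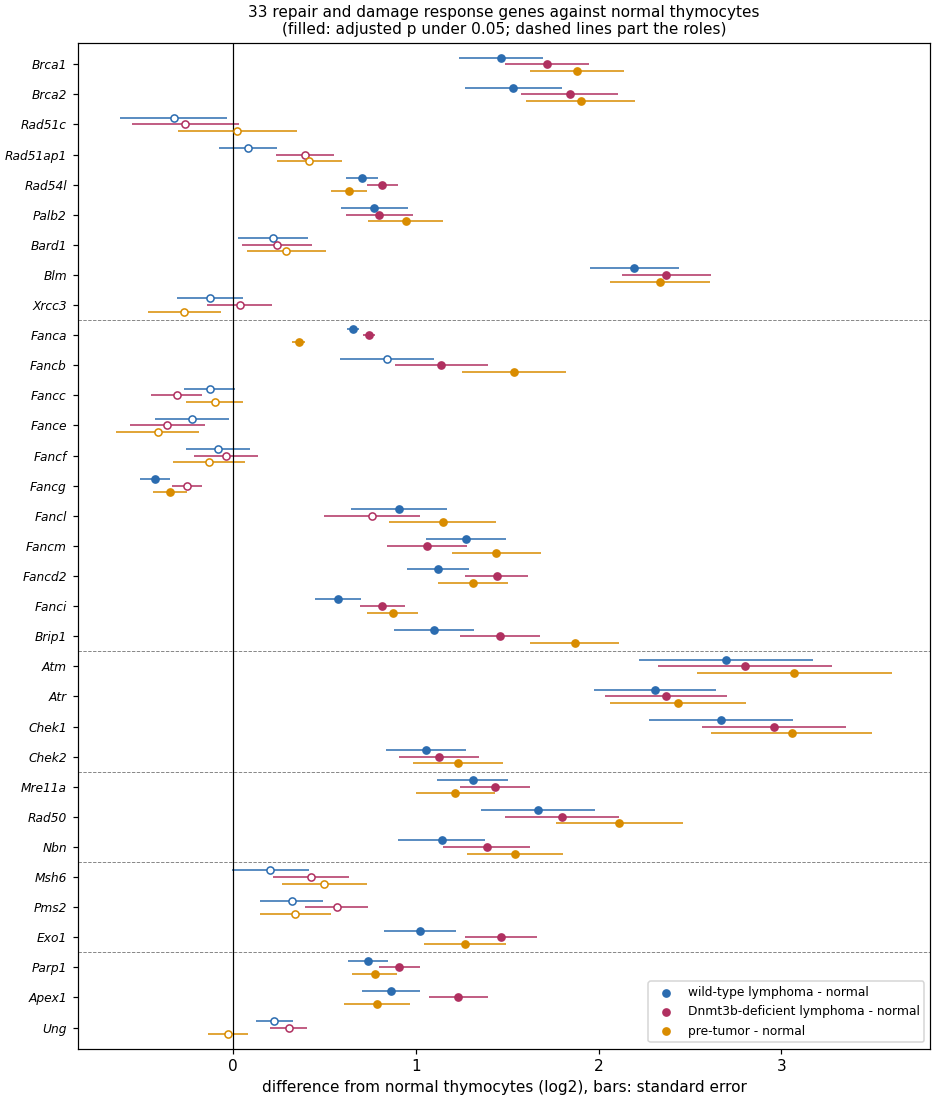
Difference from normal thymocytes (log2, horizontal axis) for each of 33 genes, with SE bars. Filled points passed an adjusted p of 0.05, open points did not, and dashed lines part the roles. Atm and Chek1 lie farthest to the right in each comparison, and Fancg is the only gene with filled points left of 0.

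All 4 checkpoint kinases rose in each comparison, with median differences of 2.49, 2.58 and 2.75, the largest of the 6 groups by role. Atm, the kinase that answers to double-strand breaks, had log2 levels of 4.48, 3.53 and 5.19 in normal thymocytes, 7.25, 6.98 and 7.05 in WT lymphomas, 7.13, 7.94 and 6.54 in KO lymphomas, and 7.22 and 7.72 in pre-tumor samples. The normal samples spread widely, yet none reached the lowest tumor. The difference was 2.69 ± 0.48 (SE) in WT lymphomas (6.47-fold, adjusted p = 0.00741), 2.80 ± 0.48 in KO lymphomas (6.97-fold, adjusted p = 0.00571) and 3.07 ± 0.53 in pre-tumor samples (8.41-fold, adjusted p = 0.00829). Atr, the kinase of stalled forks, read 3.94, 4.09 and 4.52 in normal thymocytes, 6.89, 6.29 and 6.29 in WT lymphomas, 6.29, 7.22 and 6.15 in KO lymphomas, and 6.34 and 6.89 in pre-tumor samples. It rose by 2.31 ± 0.33, 2.37 ± 0.33 and 2.43 ± 0.37 (adjusted p = 0.00341, 0.00267 and 0.00555), with no overlap between normal and MYC samples.

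Chek1, the effector kinase of Atr that holds cells before mitosis, read 5.17, 3.98 and 5.35 in normal thymocytes, 7.58, 7.47 and 7.46 in WT lymphomas, 8.01, 8.15 and 7.21 in KO lymphomas, and 7.67 and 8.11 in pre-tumor samples. It rose by 2.67 ± 0.39, 2.96 ± 0.39 and 3.06 ± 0.44, or 6.37-fold, 7.77-fold and 8.32-fold (adjusted p = 0.00367, 0.00217 and 0.0046). Chek2, the effector kinase of Atm, moved less. Its levels were 5.25, 5.49 and 5.34 in normal thymocytes, 6.56, 6.2 and 6.48 in WT lymphomas, 6.88, 6.41 and 6.17 in KO lymphomas, and 6.30 and 6.88 in pre-tumor samples, and it rose by 1.05 ± 0.22, 1.13 ± 0.22 and 1.23 ± 0.24 (adjusted p = 0.0139, 0.00974 and 0.0131). Normal sample 2 was the lowest of its group for Atm and Chek1 but the highest for Chek2.

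**Figure D2:**
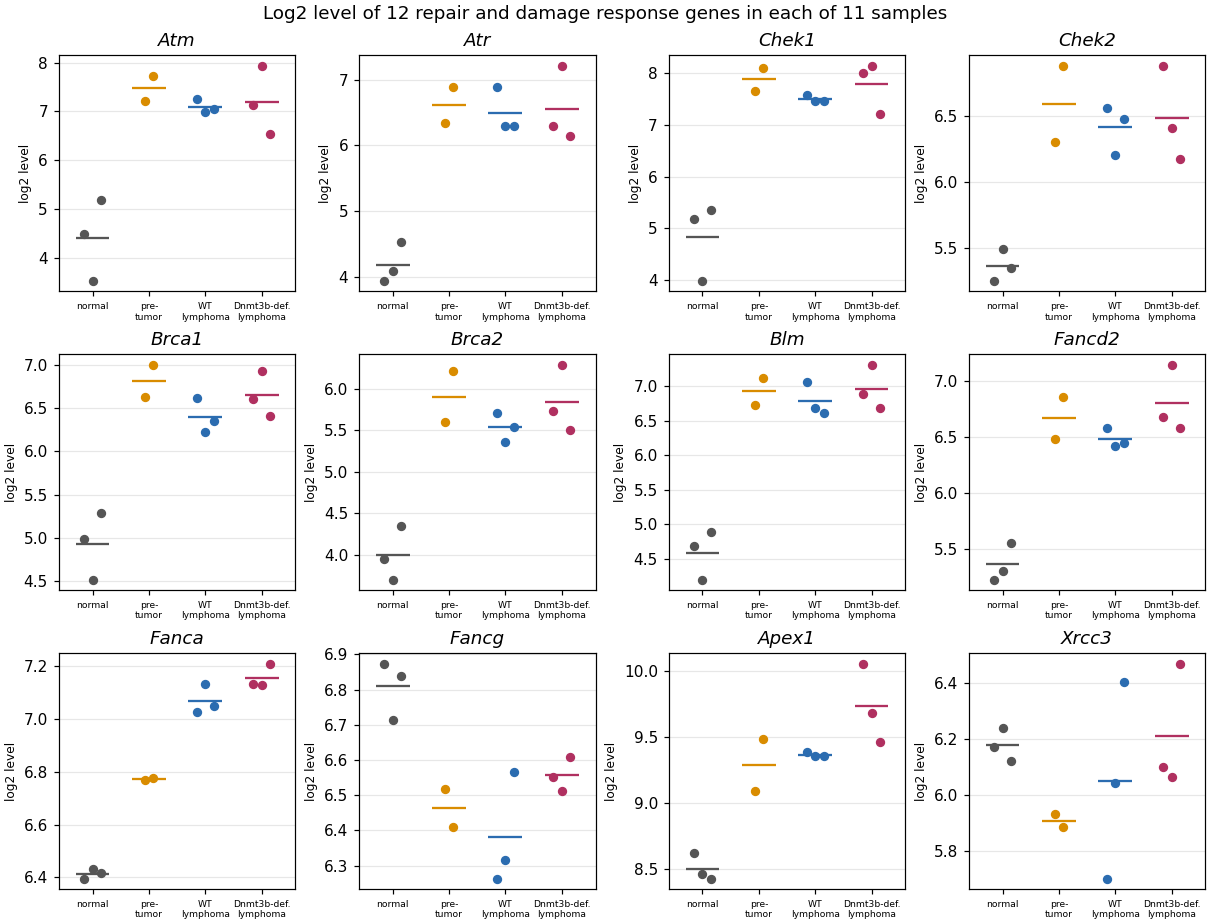
Log2 level (vertical axis, a scale of its own in each panel) of 12 genes in each of 11 samples, grouped on the horizontal axis as normal (n = 3), pre-tumor (n = 2), WT lymphoma (n = 3) and KO lymphoma (n = 3), with a line at each group's mean. Normal samples lie below all others in 10 panels, above all others for Fancg and among the others for Xrcc3.

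All 3 parts of the break sensor complex rose in each comparison, and their median differences were 1.31, 1.43 and 1.54. Rad50, the ATPase that tethers DNA ends, read 5.65, 4.86 and 5.80 in normal thymocytes, 7.47, 6.66 and 7.17 in WT lymphomas, 7.37, 7.38 and 6.95 in KO lymphomas, and 7.29 and 7.81 in pre-tumor samples. Its rise was 1.67 ± 0.31, 1.80 ± 0.31 and 2.11 ± 0.35 (adjusted p = 0.00939, 0.00628 and 0.00713). Mre11a, the nuclease, read 6.41, 5.93 and 6.74 in normal thymocytes and between 7.43 and 7.93 in the 8 MYC samples, and rose by 1.31 ± 0.19, 1.43 ± 0.19 and 1.21 ± 0.22 (adjusted p = 0.00368, 0.00229 and 0.00902). In each case normal sample 2 was the lowest of all. Nbn, the adaptor that brings Atm to the complex, rose by 1.14 ± 0.24, 1.39 ± 0.24 and 1.54 ± 0.26 (adjusted p = 0.014, 0.00583 and 0.00806). A second Nbn probe set with a lower mean went the other way, by -0.37, -0.11 and -0.46, with no call, so the rise of Nbn rests on 1 of its 2 probe sets.

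In homologous recombination 5 of 9 genes rose in each comparison and none fell. Blm, the helicase that dissolves crossed DNA strands, had the largest differences. It read 4.68, 4.19 and 4.88 in normal thymocytes, 7.06, 6.68 and 6.61 in WT lymphomas, 6.88, 7.31 and 6.68 in KO lymphomas, and 6.72 and 7.12 in pre-tumor samples, a rise of 2.20 ± 0.24, 2.37 ± 0.24 and 2.34 ± 0.27 (4.58-fold, 5.17-fold and 5.05-fold; adjusted p = 0.00129, 0.000875 and 0.00246). The highest normal sample lay well below the lowest MYC sample. Brca1, which steers breaks into recombination, read 4.98, 4.52 and 5.29 in normal thymocytes, 6.61, 6.22 and 6.35 in WT lymphomas, 6.60, 6.93 and 6.41 in KO lymphomas, and 6.62 and 7.0 in pre-tumor samples. It rose by 1.46 ± 0.23, 1.72 ± 0.23 and 1.88 ± 0.26 (adjusted p = 0.00462, 0.00221 and 0.0039). Brca2, a core protein of recombination, read 3.95, 3.70 and 4.35 in normal thymocytes and 5.36 to 6.29 in MYC samples, and rose by 1.53 ± 0.27, 1.84 ± 0.27 and 1.90 ± 0.30 (adjusted p = 0.00684, 0.00294 and 0.00589).

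The other recombination genes divided. Rad54l, a DNA motor protein of recombination, read 7.18, 7.19 and 7.11 in normal thymocytes, 7.94, 7.75 and 7.91 in WT lymphomas, 8.0, 8.08 and 7.86 in KO lymphomas, and 7.66 and 7.93 in pre-tumor samples. Its rise of 0.70 ± 0.09, 0.82 ± 0.09 and 0.63 ± 0.10 was larger than the SD within any group (0.05 in normal samples, 0.10 in WT lymphomas, 0.11 in KO lymphomas and 0.19 in pre-tumor samples). Palb2, the bridge between Brca1 and Brca2, rose by 0.77 ± 0.18, 0.80 ± 0.18 and 0.94 ± 0.20 (adjusted p = 0.0234, 0.0194 and 0.0176). Its calls in the lymphomas were kept in 18 of 23 settings each. Those settings count the main fit and 1 with the next brightest probe set. For genes with 1 probe set, such as Palb2, Fancl, Fancb and Fanca, the latter repeats the main fit and cannot lose a call. The rise of Palb2 started from normal levels of 3.69 to 3.92 that lie near the floor of the table. The lowest normal levels of Atm (3.53), Brca2 (3.70), Fancb (3.93), Atr (3.94) and Chek1 (3.98) lay near it too. Bard1, the partner of Brca1, did not follow it: its differences were 0.22, 0.24 and 0.29, and none of its 3 probe sets was called. Rad51c and Xrcc3, which act together in recombination, gave -0.33, -0.26 and 0.02 and -0.13, 0.03 and -0.27, and Rad51ap1, an accessory factor of recombination, gave 0.08, 0.39 and 0.42, all without a call.

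In the Fanconi anemia pathway 6 of 11 genes rose in each tumor comparison and 7 in pre-tumor samples. Fancd2 and Fanci form the pair that is ubiquitinated at crosslinks. Fancd2 read 5.23, 5.31 and 5.55 in normal thymocytes, 6.58, 6.42 and 6.45 in WT lymphomas, 6.68, 7.15 and 6.59 in KO lymphomas, and 6.48 and 6.86 in pre-tumor samples, and rose by 1.12 ± 0.17, 1.44 ± 0.17 and 1.31 ± 0.19 (adjusted p = 0.00414, 0.00139 and 0.00479). Fanci rose by 0.57 ± 0.12, 0.82 ± 0.12 and 0.87 ± 0.14 (adjusted p = 0.0167, 0.00375 and 0.00644). Brip1, a helicase that binds Brca1, read 5.04, 4.77 and 4.83 in normal thymocytes, 6.15, 5.77 and 6.01 in WT lymphomas, 6.39, 6.62 and 6.01 in KO lymphomas, and 6.41 and 7.09 in pre-tumor samples. It rose by 1.10 ± 0.22, 1.46 ± 0.22 and 1.87 ± 0.24 (adjusted p = 0.0119, 0.0034 and 0.00336). Fancm, the translocase that anchors the core complex to DNA, rose by 1.27 ± 0.22, 1.06 ± 0.22 and 1.44 ± 0.24 (adjusted p = 0.00655, 0.0126 and 0.00774). No MYC sample of these 4 genes overlapped a normal sample.

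The core complex, whose Fancl subunit is the ubiquitin ligase for that pair, did not move as a unit. Fanca had small rises with the smallest SE of the 33 genes, reading 6.40, 6.43 and 6.41 in normal thymocytes, 6.77 and 6.78 in pre-tumor samples, 7.03, 7.13 and 7.05 in WT lymphomas, and 7.13, 7.13 and 7.21 in KO lymphomas. It rose by 0.66 ± 0.03, 0.74 ± 0.03 and 0.36 ± 0.04 in the 3 comparisons with normal thymocytes (adjusted p = 0.000212, 9.95e-05 and 0.0016). Fancl rose by 0.91 ± 0.26 in WT lymphomas and 1.15 ± 0.29 in pre-tumor samples (adjusted p = 0.0484 and 0.0315), and its difference of 0.76 ± 0.26 in KO lymphomas was not called (adjusted p = 0.0889). The call of Fancl in WT lymphomas was kept in 12 of 23 settings and was lost without any 1 of the normal samples, the WT lymphomas or KO lymphomas 1 and 3. Fancb rose by 1.14 ± 0.26 in KO lymphomas and 1.54 ± 0.29 in pre-tumor samples (adjusted p = 0.018 and 0.0104), and gave 0.84 ± 0.26 in WT lymphomas (adjusted p = 0.0572). Its call in KO lymphomas was kept in 18 of 23 settings and was lost without any 1 of normal samples 1 and 2 or KO lymphomas 1 and 2. Neither pattern shows a difference between the tumor genotypes, which was -0.15 ± 0.26 for Fancl and 0.30 ± 0.26 for Fancb. Fancg, another core subunit, was the only gene that fell, from 6.87, 6.71 and 6.84 in normal thymocytes to 6.26, 6.32 and 6.57 in WT lymphomas, 6.55, 6.51 and 6.61 in KO lymphomas, and 6.52 and 6.41 in pre-tumor samples. The difference was -0.43 ± 0.08 and -0.35 ± 0.09 in WT lymphoma and pre-tumor samples (adjusted p = 0.0106 and 0.0377) and -0.25 ± 0.08 in KO lymphomas (adjusted p = 0.0757). All 8 MYC samples were below all normal ones. The remaining core subunits Fancc, Fance and Fancf ranged from -0.41 to -0.04 over the 3 comparisons, with no call.

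In base excision repair and poly(ADP-ribose) signalling 2 of 3 genes rose in each comparison, and in mismatch repair 1 of 3 did. Apex1, the endonuclease that cuts at abasic sites, read 8.62, 8.46 and 8.42 in normal thymocytes, 9.38, 9.35 and 9.35 in WT lymphomas, 10.06, 9.68 and 9.46 in KO lymphomas, and 9.09 and 9.49 in pre-tumor samples. It rose by 0.86 ± 0.16, 1.23 ± 0.16 and 0.79 ± 0.18 (adjusted p = 0.009, 0.00197 and 0.0208). Parp1, which marks strand breaks with poly(ADP-ribose), read 8.41, 8.22 and 8.29 in normal thymocytes and 8.96 to 9.44 in MYC samples, and rose by 0.74 ± 0.11, 0.91 ± 0.11 and 0.77 ± 0.12 (adjusted p = 0.00385, 0.00149 and 0.00629). These are the genes with an E-box in the promoters printed above. Ung, which removes uracil, was not called, with differences of 0.23, 0.30 and -0.03. Of the mismatch repair genes Exo1, the exonuclease that clears the faulty strand, rose by 1.02 ± 0.20, 1.47 ± 0.20 and 1.27 ± 0.22 (adjusted p = 0.0109, 0.00233 and 0.00859). Its levels were 5.58, 6.0 and 5.95 in normal thymocytes and 6.69 to 7.51 in MYC samples. Msh6, which detects mismatches, gave 0.20, 0.43 and 0.50, and Pms2, which acts after the mismatch is detected, gave 0.32, 0.57 and 0.34, with no call.

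Of 93 further genes listed for DNA repair and damage signalling, 82 were measured. Among them 25 rose and 9 fell in WT lymphomas, 28 rose and 8 fell in KO lymphomas, and 31 rose and 9 fell in pre-tumor samples, with median differences of 0.11, 0.20 and 0.20. Other recombination genes (8 of 16 rising in each comparison) and damage signalling genes (8, 9 and 9 of 17) held most of the rises, and 2 of 12 nucleotide excision repair genes rose in each. The largest rises were those of Rif1, which limits end resection (2.60, 2.89 and 3.09), Usp1, the enzyme that removes ubiquitin from Fancd2 (2.30, 2.42 and 2.61), Gen1, a nuclease for crossed strands (1.99, 1.86 and 2.40), and Brcc3, a deubiquitinase of the Brca1-A complex (1.69, 2.02 and 2.25). The largest falls were those of Mus81, another nuclease for crossed strands (-1.39, -1.44 and -1.61), Neil1, a glycosylase for oxidized bases (-1.32, -1.48 and -1.21), the damage-marked histone gene H2afx (-1.11, -1.09 and -0.69) and Rad9a of the checkpoint clamp (-1.04, -0.86 and -1.03). All of these were called by limma, with adjusted p from 0.000679 to 0.0474. The 82 genes together held calls in each direction.

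**Figure D3:**
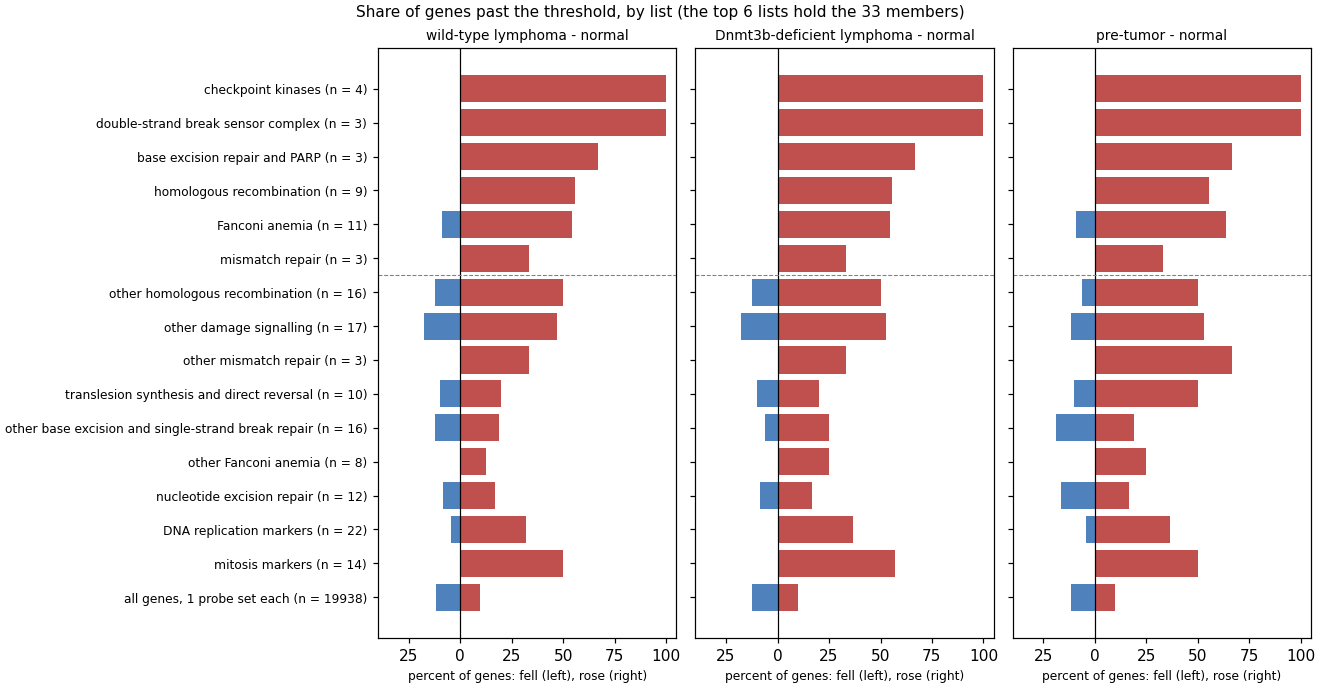
Percent of the genes of each list that rose (right of 0) or fell (left of 0) against normal thymocytes, with a panel for each of 3 comparisons and n measured genes beside each name. The upper 6 lists hold the 33 genes. All checkpoint kinases and break sensor genes rose, while 9.67%, 9.99% and 9.66% of all 19938 genes did.

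Some markers of cell division rose in the same comparisons as the repair genes, and others did not. Among 14 mitosis genes, 7 rose in WT lymphomas, 8 in KO lymphomas and 7 in pre-tumor samples, and none fell, with medians of 0.40, 0.70 and 0.47. Mki67, the proliferation antigen, rose by 1.5, 1.85 and 2.37 and Top2a, the topoisomerase of chromosome separation, by 2.12, 2.09 and 2.82, while the cyclin Ccnb2 gave -0.24, -0.24 and 0.05 with no call. Among 22 replication genes, 7 rose and 1 fell in WT lymphomas, 8 rose in KO lymphomas, and 8 rose and 1 fell in pre-tumor samples. The medians of the replication genes were 0.09, 0.29 and 0.19. Of the helicase subunits Mcm2, Mcm3 and Mcm4, only Mcm4 was called, with rises of 1.00, 1.19 and 1.41. The mean level of the mitosis list was 6.64 to 7.19 in normal samples and 7.72 to 8.47 in MYC samples, without overlap. Its part in the rise of the repair genes was not tested.

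Cell type markers also differed between the groups. Of 13 thymocyte markers, 11 fell in WT lymphomas, 10 in KO lymphomas and 6 in pre-tumor samples. Their mean level was 10.21 to 10.29 in normal samples, 8.48 and 9.14 in pre-tumor samples, and 7.49 to 7.98 in lymphomas. Cd3e, a CD3 chain gene of the T cell receptor complex, fell by 1.5, 1.41 and 1.20 on the log2 scale. The mean of 17 macrophage and neutrophil markers was 5.26 to 5.34 in normal samples, 6.22, 6.30 and 4.61 in WT lymphomas, 4.32, 5.57 and 4.40 in KO lymphomas, and 4.25 and 4.39 in pre-tumor samples, with at most 1 of the 17 at the table's floor in any sample. Among 7 B cell markers 1 rose, in pre-tumor samples, and none of 8 dendritic cell, 12 stromal and endothelial or 4 erythroid markers rose in any of the 3 comparisons. Of the dendritic cell markers 0, 3 and 4 fell in WT lymphoma, KO lymphoma and pre-tumor samples, of the stromal and endothelial ones 4, 2 and 2, and of the erythroid ones 1 in each. The mean of the 33 repair genes was higher in every MYC sample than in normal thymocytes. The macrophage and neutrophil means of MYC samples lay above or below the normal range, and their thymocyte means all lay below it. The mean level of the 33 repair genes was 6.59 and 6.44 in the 2 WT lymphomas with the most macrophage and neutrophil signal and 6.50 in the other one. The part of any of these cell type markers in the results was not tested.

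The level within a group differed by sample, and the repair genes that rose shared this order with the other probe sets that rose. Of the 20 genes that rose in all 3 comparisons, 19 were higher in pre-tumor sample 2 than in pre-tumor sample 1, 15 were highest in KO lymphoma 2, 19 were lowest in KO lymphoma 3, 17 were highest in WT lymphoma 1 and 11 were lowest in normal sample 2. The 2058 probe sets that rose in all 3 comparisons had the same samples at the extremes: 89.9% were higher in pre-tumor sample 2, 63.8% highest in KO lymphoma 2, 68.2% lowest in KO lymphoma 3, 68.1% highest in WT lymphoma 1 and 62.6% lowest in normal sample 2. The mean level of the 33 genes was 5.68, 5.52 and 5.75 in normal samples, 6.59, 6.44 and 6.50 in WT lymphomas, 6.65, 6.85 and 6.47 in KO lymphomas, and 6.52 and 6.84 in pre-tumor samples. The median SD of the 33 genes was 0.15 in normal samples, 0.18 in WT lymphomas, 0.28 in KO lymphomas and 0.27 in pre-tumor samples, against 0.15, 0.17, 0.20 and 0.15 for all genes above the floor. The low-numbered probe sets left out of the tests, which have no gene name here, had a median of 4.74 in pre-tumor sample 2 and of 4.26 to 4.51 in the other 10 samples. Measures of RNA quality are not given in the sources used here, and their part was not tested.

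**Figure D4:**
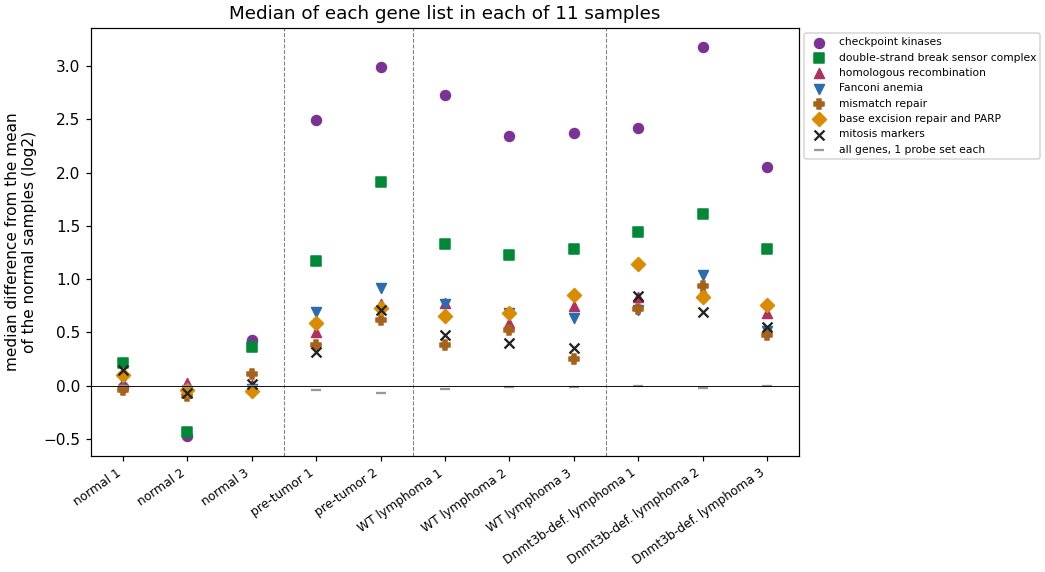
Median difference of each gene list from the mean of the normal samples (log2, vertical axis) in each of 11 samples (horizontal axis, dashed lines part the groups). Checkpoint kinases run from 2.05 to 3.18 in MYC samples and are highest in KO lymphoma 2, while the median over all genes stays near 0.

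The number of calls in the pre-tumor comparison differed with and without pre-tumor sample 2. With it 23 of the 33 genes were called, and without it 8 (835 and 877 of all probe sets rose and fell then): Brca1, Blm, Rad54l, Fanca, Fancd2, Brip1, Chek1 and Parp1. The median difference of the 33 genes was 0.82 without pre-tumor sample 2 and 1.32 without pre-tumor sample 1. A fit on the pre-tumor and normal samples alone, which keeps pre-tumor sample 2, also called 8, and 850 and 1400 of all probe sets rose and fell. Leaving out pre-tumor sample 2 leaves 1 sample in its group, and the cause of the drop in calls was not tested.

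The study asks what loss of Dnmt3b does in MYC-driven lymphoma, and for the repair genes the tumor genotypes were not told apart. None of the 33 genes passed the threshold by limma between KO and WT lymphomas, and 1, Fanca, had an unadjusted p under 0.05 (0.09 ± 0.03, adjusted p = 0.757). Over all 28939 probe sets, 1823 had an unadjusted p under 0.05 by limma. The KO lymphomas also carry Teto-Cre, which the WT lymphomas lack, so Cre and the loss of Dnmt3b cannot be told apart. Over all probe sets 0.00346% were called higher and 0.00346% lower. That is 1 and 1 probe set, which became 75 and 7 without KO lymphoma 1 and 19 and 69 without WT lymphoma 3, with none of the 33 genes among them. The differences ran from -0.21 to 0.445 on the log2 scale, with 29 of 33 above 0 and a median of 0.16, against a median of 0.00 over all genes, of which 9664 of 19938 lay above 0 and 7426 below. The median was 0.08 without KO lymphoma 2 and 0.26 without KO lymphoma 3. The largest were those of Exo1 (0.445 ± 0.20, adjusted p = 0.795), Apex1 (0.37 ± 0.16, adjusted p = 0.794), Brip1 (0.36 ± 0.22, adjusted p = 0.899) and Fancd2 (0.32 ± 0.17, adjusted p = 0.847). For 2 genes, Apex1 and Fancd2, each KO lymphoma lay above each WT one, and for none below, where 4.64% and 3.34% of all probe sets showed such a separation. Fancm (-0.21 ± 0.22), Fancc (-0.18 ± 0.14), Fancl (-0.15 ± 0.26) and Fance (-0.13 ± 0.20) were the genes below 0. With 3 tumors of each kind, SEs between 0.03 and 0.48 bound what could be seen, and a result short of the threshold does not show equal levels.

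**Figure D5:**
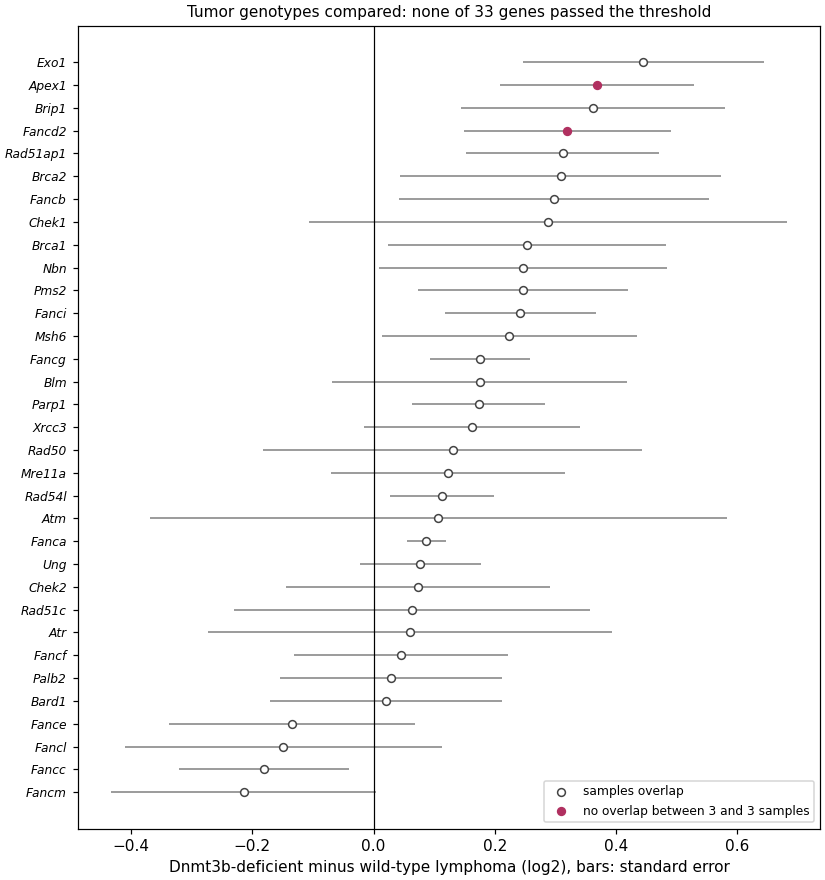
KO minus WT lymphoma (log2, horizontal axis) for each of 33 genes, with SE bars and n = 3 a group. Filled points mark Apex1 and Fancd2, whose samples do not overlap, and 29 of the 33 points lie above 0 though none passed the threshold.

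Between tumors and the pre-tumor stage 1 repair gene was called. Fanca rose in KO lymphomas against pre-tumor samples of the same genotype, by 0.38 ± 0.04 (1.31-fold, adjusted p = 0.0281), and in WT lymphomas by 0.30 ± 0.04 (1.23-fold, adjusted p = 0.0456). The tumors were not sorted and the pre-tumor cells were, at 24 days, and WT lymphomas differ from them in Dnmt3b and Teto-Cre too, so stage, age, sorting and, for WT lymphomas, genotype cannot be told apart. Fanca was the only gene of the 33 called in either comparison, where 0.0311% of all probe sets were higher and 0.038% lower in KO lymphomas, and 0.0276% higher and 0.0795% lower in WT ones. All 6 tumors exceeded both pre-tumor samples for Fanca. The main fit and, as Fanca has 1 probe set, its repeat are among the 23 settings. However, the call was kept in only 10 of the 23 for KO lymphomas and in 5 of 23 for WT lymphomas. The first was lost without any 1 of the normal samples, WT lymphoma 3 or pre-tumor sample 2, and the second without any 1 of the normal or pre-tumor samples, WT lymphomas 1 and 2 or KO lymphomas 1 and 2. The median differences of the 33 genes were -0.06 and -0.17. Brip1 and Fancb were lower in WT lymphomas than in pre-tumor samples by -0.77 ± 0.24 and -0.70 ± 0.29 without passing the threshold (adjusted p = 0.443 and 0.615). Among the 82 further repair genes, none passed in these comparisons or between the tumor genotypes by limma, and 9, 6 and 4 had an unadjusted p under 0.05 in KO lymphoma against pre-tumor, WT lymphoma against pre-tumor, and KO against WT lymphoma. Over all 28939 probe sets, 2730, 2248 and 1823 did in the same order.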

How the data were processed

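RNA of 11 thymus samples (300 ng each) was labelled with the Ambion WT Expression kit and read on 1 Affymetrix array per sample, per the labels' protocols. The authors deposited log2 values, 1 per probe set and array. Partek and RMA appear in the submitters' processing notes, and their versions, order and genome build are not given in the sources used here. The table's lowest value is 3.32 (log2 of 10), the floor, held by 23.6% to 25.7% of probe sets per array, and none of the 33 genes reached it. Array medians ran from 4.55 to 4.62.

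Of 35512 probe sets, 6573 with low numbers and no gene name were left out and 28939 tested by limma's moderated linear model (version 3.58.1 under R 4.3.3, 4 groups in 1 fit, adjusted by Benjamini-Hochberg, threshold 0.05). The platform annotation gave 21789 of these 1 symbol, 1621 several and 5529 none. A fold is 2 to the power of a log2 difference. The procedure was tested on simulated data. Genes named outside the 33 are, per comparison, up to 4 rises and 4 falls of the other repair lists by size, up to 3 per marker list in list order, and neighbours of the 33. The 33 genes and all lists were chosen with earlier results of these data known. Alternatives covered normalization, filters, moderation, the fold minimum, other probe sets, replicate numbers and each sample left out. The number of arrays limits the precision.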

Additional observations from a re-analysis of the deposited data

Results flagged for a closer look

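Fanca, a subunit of the Fanconi anemia core complex, differed between tumors and pre-tumor samples by a test of the difference itself. Its log2 level was 0.38 higher in KO lymphomas than in pre-tumor thymocytes of the same genotype (adjusted p = 0.0281 by limma, higher in 3 of 3 tumors) and 0.30 higher in WT lymphomas (adjusted p = 0.0456, higher in 3 of 3). Neither call was kept in every setting run. Each was lost under quantile normalization, median centring and no moderation, among others. The pre-tumor samples are the same 2 in each comparison, with levels of 6.77 and 6.78. They were sorted and the tumors were not, and the WT lymphomas also differ from them in Dnmt3b and Cre, which cannot be told apart from stage.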

How the results depend on the processing

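Counts against normal thymocytes of called repair genes were 22 for WT lymphomas (17 to 22 when 1 sample was left out, 19 to 23 under the other alternatives), 21 for KO lymphomas (19 to 22 and 20 to 23) and 23 for pre-tumor samples (8 to 23 and 8 to 23). In every setting run, 16 of 22, 18 of 21 and 4 of 23 of these calls were kept. The value of 8 came without pre-tumor replicate 2 and from the fit on only pre-tumor and normal samples, the second of which has fewer samples to estimate the spread. Without pre-tumor replicate 1 the count was 22, and the cause of the drop without replicate 2 was not tested. WT lymphoma calls lost in some setting were Chek2, Fancg, Fanci, Fancl, Nbn and Palb2, and KO lymphoma ones Fancb, Nbn and Palb2. Leaving out WT lymphoma 1 ended the WT lymphoma calls of Chek2, Fanci, Fancl, Nbn and Palb2, WT lymphoma 2 that of Fancl, WT lymphoma 3 those of Fancl and Palb2, KO lymphomas 1 and 3 each that of Fancl, and normal samples 1, 2 and 3 in turn those of Fanci and Fancl, of Fanci, Fancl and Palb2, and of Fancl and Palb2. In KO lymphomas, leaving out KO lymphoma 1, KO lymphoma 2 or normal sample 2 each ended the calls of Fancb and Palb2, normal sample 1 that of Fancb and normal sample 3 that of Palb2. Between tumor genotypes the count was 0 throughout. The count of 1 (Fanca) in tumors against pre-tumor samples became 0 in each comparison under quantile normalization, median centring, the 2 filters on low values, the fit on only the compared groups, no moderation and a minimum fold of 1.5, in WT lymphomas also with a variance trend, and ranged from 0 to 1 when 1 sample was left out. Where filters or scaling ended the call, the cause was not tested. The second Nbn probe set reversed the direction, to -0.3657, -0.1081 and -0.4632 in WT lymphomas, KO lymphomas and pre-tumor samples, and the cause was not tested. With the replicate number as a block, 19, 20 and 18 genes were called against normal thymocytes, 0 between genotypes and 0 in tumors against pre-tumor samples. No pairing by number was seen: deviations of same-numbered samples correlated from -0.33 to 0.32 and those of other pairs from -0.32 to 0.33. Of the 11 samples, 2 correlated best with their own number. Deviations from the mean of so few samples depend on each other, so they cannot settle whether the numbers pair samples.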
